A study of Mus musculus with 14 samples.

Results

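The Adam, Adamts, Mmp and Timp genes of embryonic mouse skin epithelium were described in 2 sorted fractions. All protein-coding genes were taken whose symbol starts with Adam and a number, Adamts and a number or l, Mmp and a number, or Timp and a number. This gave 64 of the 26252 genes in the count table: 22 Adam, 19 Adamts, 5 Adamtsl, 14 Mmp and 4 Timp genes. The rule used names alone and no measured value. A further 19 annotated genes that meet it are not listed in the table and were not analysed.

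The placode-enriched group holds the MAdCAM-1 positive cells and the IFE group, the interfollicular epidermis, the MAdCAM-1 negative cells of the same dorsal skin. All embryos were wild type, of the strain C57BL/6JOlaHsd, at the embryonic stage E14.5, when the first hair placodes are present. Each library pooled 3 to 4 littermate embryos, and the 14 libraries form 7 pairs that share a title code, numbered 1 to 7 here; pairs 5 to 7 have codes that start with 27-7. A fraction is defined by 1 surface protein after enzymatic removal of the dermis, so it is a population and not a single cell type.

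Matrix metalloproteinases (Mmp) cut collagens, laminins and other matrix proteins, and tissue inhibitors of metalloproteinases (Timp) bind and block them. Adam proteins are membrane-anchored, and the active ones release growth factors, cytokines and receptor ectodomains from the cell surface. Adamts proteins are secreted and cut proteoglycans, procollagens or microfibril-associated proteins, while Adamtsl proteins share their ancillary domains and lack the protease. A hair placode is a thickening of the epidermis that grows down into the dermis, with its basement membrane between the 2 tissues.

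Library totals were 23.8 to 49.5 mega counts in placode-enriched libraries and 23.8 to 39.5 mega counts in IFE libraries. Mitochondrial genes took 5.13% to 7.5% of counts in placode-enriched libraries and 5.87% to 7.93% in IFE libraries. The sort was checked on Madcam1, which had 36.5, 40.1 and 66.6 CPM (counts per mega count after TMM scaling; lowest, median and highest library) in placode-enriched libraries and 0.171, 0.612 and 1.23 CPM in IFE libraries. All 10 placode markers examined, such as Shh, Edar and Lhx2, were higher in placode-enriched libraries. All 10 suprabasal markers, such as Krt10 and Krtdap, were lower there. Of 7 basal epidermal markers 3 were higher, among them Krt14 (0.19) and Trp63 (0.48), 3 were lower, Krt5 (-0.54), Krt15 (-0.90) and Itgb4 (-0.28), and 1 did not pass.

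Of the 64 genes, 42 passed the filter on low counts and were tested with edgeR's quasi-likelihood test, with Benjamini-Hochberg adjustment over 15382 genes. Among them 12 were higher and 10 lower in placode-enriched libraries at an adjusted p under 0.05, and 20 did not pass. Over all genes tested, 31.1% passed, 15.5% as higher and 15.6% as lower. The family therefore held 52.4% calls among its tested genes, described here without a test. Its median log2 fold change was 0.11 and its median absolute log2 fold change 0.52, beside -0.02 and 0.25 over all genes tested. At least 2-fold differences were called for 10 of the 42 tested members, 6 higher and 4 lower, and for 10.6% of all genes tested. The CPM ranges of the fractions did not overlap in 13 of the 42 tested members and in 14.8% of all genes tested. The difference had 1 sign in all 7 pairs in 16 of the 42 tested members and in 26.5% of all genes tested. In these bulk libraries, fewer cells of a type and less RNA per cell cannot be told apart.

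**Figure D1:**
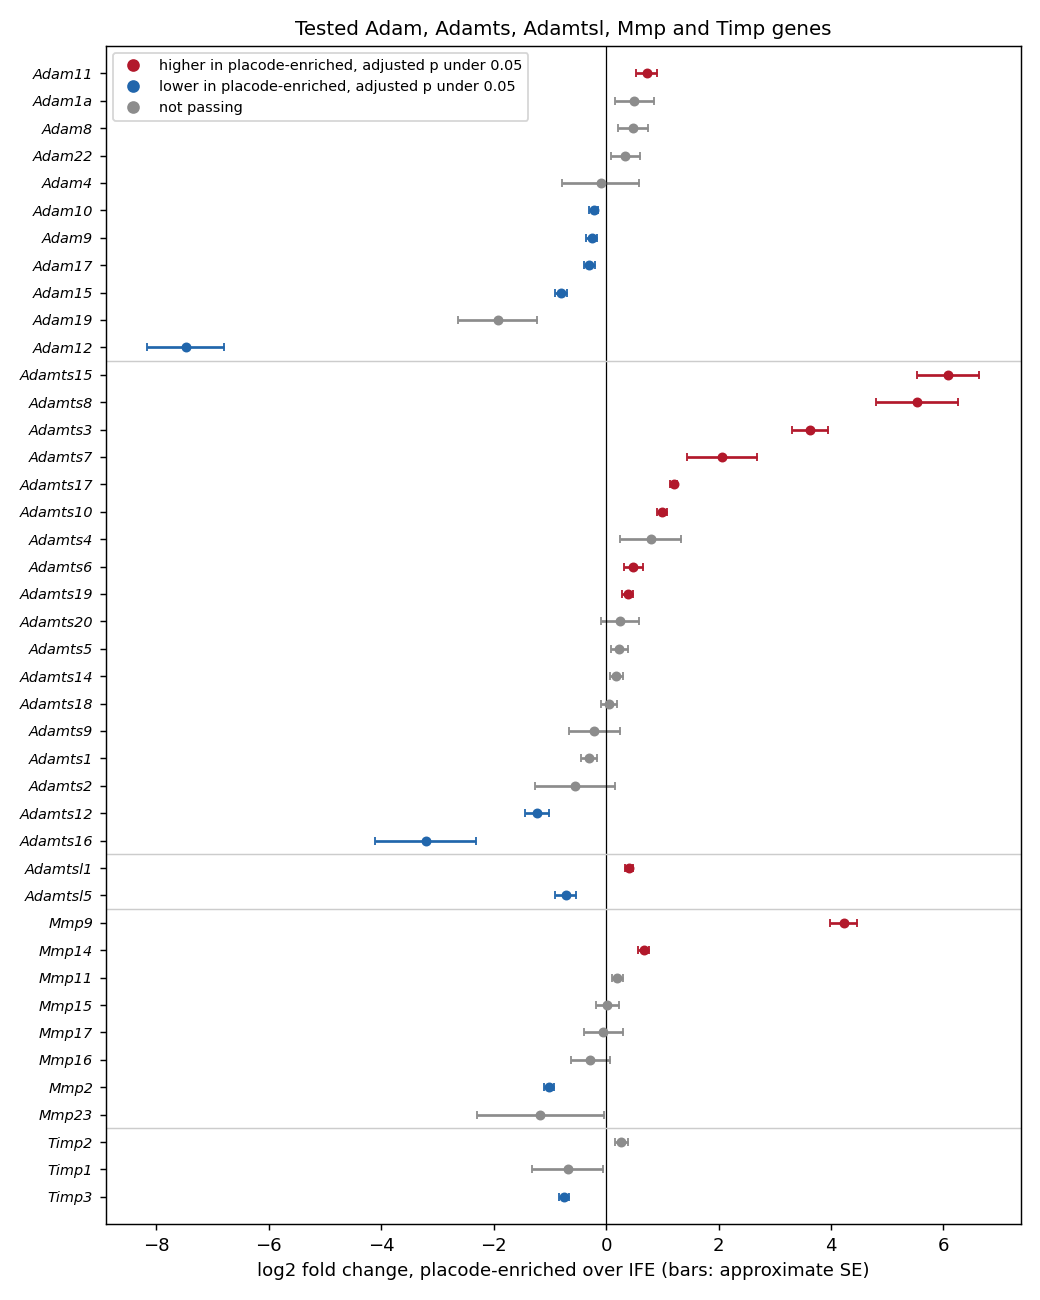
Log2 fold change (placode-enriched over IFE, x axis) of the 42 tested members, grouped by class on the y axis, with bars for the approximate SE. Red points (12) were higher, blue points (10) lower and grey points (20) did not pass at an edgeR adjusted p under 0.05; the Adam12 point, from 3 placode-enriched counts, depends on the prior count.

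Calls were counted by class, with no test between classes. Of 11 tested Adam genes, 1 was higher, 5 were lower and 5 did not pass. The 18 tested Adamts genes split into 8 higher, 2 lower and 8 that did not pass. Of the 2 tested Adamtsl genes 1 was higher and 1 lower. Among 8 Mmp genes 2 were higher, 1 was lower and 5 did not pass, and among 3 Timp genes 1 was lower and 2 did not pass. Median log2 fold changes were -0.22 for Adam, 0.31 for Adamts, -0.02 for Mmp and -0.68 for Timp genes. The Timp median is the value of Timp1 (-0.68 ± 0.63), which did not pass and lay between Timp3 (-0.75) and Timp2 (0.27).

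Adamts transcripts were the class that differed most in summed level. Their CPM summed to 373 ± 44.1 (SD, n = 7, range 320 to 456) in placode-enriched libraries and 210 ± 16.4 (range 190 to 236) in IFE libraries, a ratio of 1.78, and the sum was higher in 7 of 7 pairs. Timp transcripts summed to 80.7 ± 11.8 CPM (60.4 to 95.3) in placode-enriched, against 117 ± 8.37 CPM (99.9 to 125) in IFE libraries, a ratio of 0.69, with the placode-enriched sum higher in 0 of 7 pairs. Neither pair of ranges overlapped. Adam genes summed to 214 ± 19.4 CPM in placode-enriched, against 256 ± 13 CPM in IFE libraries (higher in 1 of 7 pairs). Mmp genes summed to 206 ± 33 CPM in placode-enriched, against 180 ± 19.3 CPM in IFE libraries (higher in 6 of 7 pairs). Adamtsl genes summed to 203 ± 32.7 CPM in placode-enriched, against 165 ± 19.9 CPM in IFE libraries (higher in 7 of 7 pairs). Most of the difference in the Adamts sum came from 1 gene, Adamts17, at 204 ± 26.9 CPM in placode-enriched, against 89.1 ± 12.5 CPM in IFE libraries.

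Per kilobase of exon, the scale on which genes can be compared with each other, a few members led the family. In placode-enriched libraries the order of mean levels began with Adamts17 (26.3 ± 3.46 CPM per kb), Adam10 (23.9 ± 2.95), Mmp14 (20.5 ± 3.45) and Adamtsl1 (14.9 ± 2.23). Adjacent genes among the first 3 differed by no more than about their SD. In IFE libraries it began with Adam10 (27.7 ± 1.77 CPM per kb), Mmp2 (19.7 ± 2.28), Mmp14 (12.8 ± 1.69) and Timp3 (12.2 ± 1.04), and the last 2 of these lay within their SD. Mmp2 had 9.77 ± 1.12 CPM per kb in placode-enriched libraries. These orders depend on the length used. Per kb of the longest transcript, Mmp14 came first in placode-enriched libraries at 37.7, followed by Adamts17 at 31.8 and Adam10 at 25.6, and in IFE libraries Adam10 at 29.6 was followed by Mmp14 at 23.6 and Mmp2 at 21.6. With exon length again, Adamts genes made up 29.1% ± 1.26 of the family's level in placode-enriched libraries and 17.9% ± 0.926 in IFE libraries. The Timp share was 8.04% ± 0.753 in placode-enriched, against 11.5% ± 0.729 in IFE libraries. Summed Mmp over summed Timp level per kb was 2.48, 3.6 and 3.97 (lowest, median and highest) in placode-enriched, against 1.99, 2.58 and 2.71 in IFE libraries, with overlapping ranges.

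**Figure D2:**
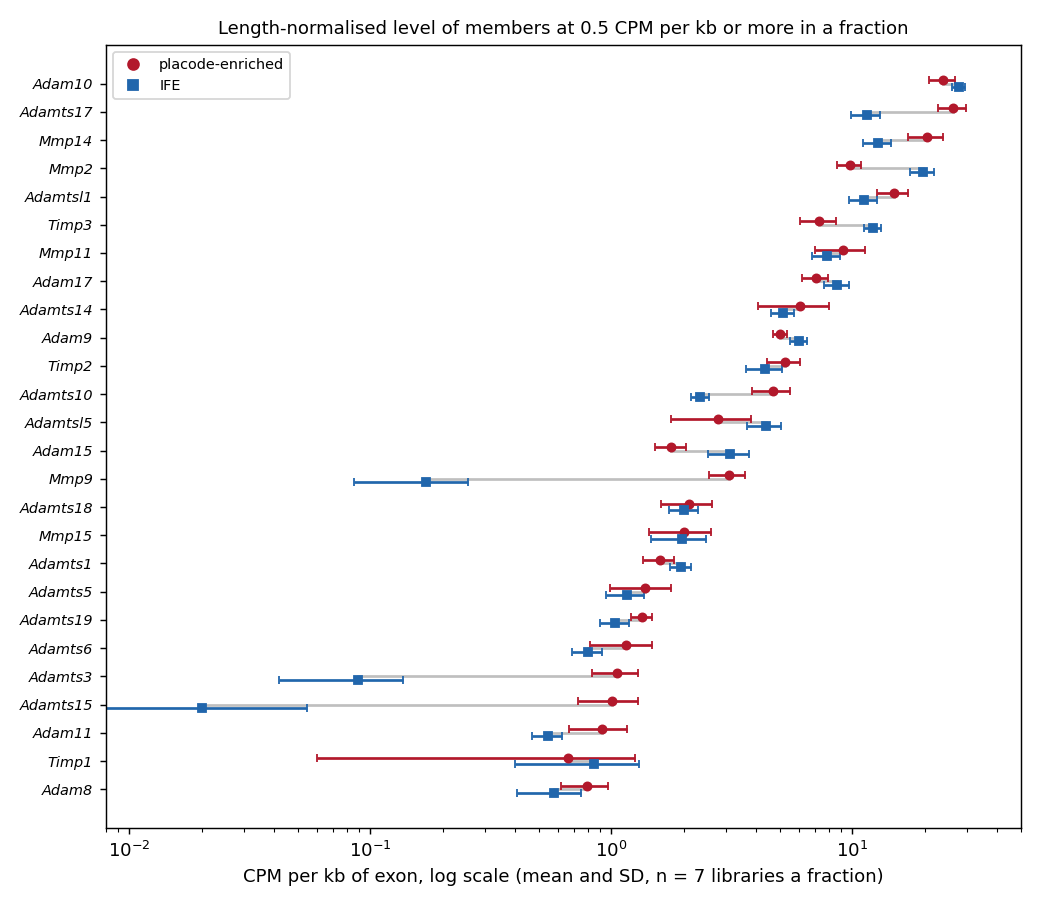
Mean CPM per kb of exon (log x axis) of the more abundant tested members, with placode-enriched libraries as red circles, IFE libraries as blue squares and bars for the SD (n = 7 each; the lower bar of Adamts15 in IFE runs past the axis). On this exon length Adamts17 is at 26.3 CPM per kb in placode-enriched libraries and Adam10 at 27.7 in IFE libraries (per kb of the longest transcript, Mmp14 passes Adamts17 in placode-enriched libraries), while Mmp9, Adamts3 and Adamts15 show the widest gaps between fractions.

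Promoters are shown for 4 called members that had an entry: the most abundant Adamts gene (Adamts17), the higher procollagen protease Adamts3, Mmp14, and the lower inhibitor Timp3. RefSeq (GRCm38.p6) gives 250 bases before and 50 after the annotated start, and 37 of the 64 members had an entry. Adamts15, Adamts8, Mmp9, Mmp2 and Adam12 had none, so their promoters could not be shown. Sequences run 5′ to 3′ on the gene's strand, and capitals mark matches on either strand to the letters GGGCGG (GC box) or CACCCA (Gli).
Adamts17 (chr7:66839485-66839784, plus strand): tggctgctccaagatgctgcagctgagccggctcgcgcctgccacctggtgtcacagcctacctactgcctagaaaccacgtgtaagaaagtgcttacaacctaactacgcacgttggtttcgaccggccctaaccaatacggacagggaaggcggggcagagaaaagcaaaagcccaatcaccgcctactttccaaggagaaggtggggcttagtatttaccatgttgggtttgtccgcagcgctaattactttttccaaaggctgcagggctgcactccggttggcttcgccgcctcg
Adamts3 (chr5:89883285-89883584, minus strand): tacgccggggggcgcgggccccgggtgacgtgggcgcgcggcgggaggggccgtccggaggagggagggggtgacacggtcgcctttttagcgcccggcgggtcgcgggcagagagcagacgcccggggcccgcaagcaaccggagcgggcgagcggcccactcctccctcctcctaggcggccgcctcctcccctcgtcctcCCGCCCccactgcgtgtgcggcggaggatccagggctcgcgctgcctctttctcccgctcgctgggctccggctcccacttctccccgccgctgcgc
Mmp14 (chr14:54431348-54431647, plus strand): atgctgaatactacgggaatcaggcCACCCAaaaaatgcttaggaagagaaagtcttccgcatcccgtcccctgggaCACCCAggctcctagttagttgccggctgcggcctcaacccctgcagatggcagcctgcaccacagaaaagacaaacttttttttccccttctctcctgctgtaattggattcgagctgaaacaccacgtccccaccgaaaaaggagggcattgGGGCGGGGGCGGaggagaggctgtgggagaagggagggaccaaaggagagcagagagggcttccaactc
Timp3 (chr10:86300162-86300461, plus strand): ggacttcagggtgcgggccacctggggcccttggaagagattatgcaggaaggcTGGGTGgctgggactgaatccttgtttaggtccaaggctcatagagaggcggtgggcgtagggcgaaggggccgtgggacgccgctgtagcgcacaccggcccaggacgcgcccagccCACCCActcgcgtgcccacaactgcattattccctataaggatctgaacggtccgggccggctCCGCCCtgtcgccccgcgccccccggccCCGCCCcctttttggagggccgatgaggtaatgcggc

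No motif searched matched the Adamts17 window, and the Adamts3 window held 1 GC box, 47 bases before the start. The Mmp14 window held CACCCA 225 and 173 bases before the start and adjoining GC boxes 19 and 13 bases before it. In the Timp3 window CACCCA lay 196 and 78 bases before the start, and GC boxes lay 15 bases before and 14 after it. No match overlapped that of another motif. Over the 41 member entries, CACCCA was present in 39%, against 22.2% of all 32851 promoters, and GGGCGG in 63.4%, against 35.7%. CTTTGA or CTTTGT (Lef/Tcf) was in 22% of member entries and 31.2% of all promoters, and TGANTCA (AP-1) in 9.76% and 7.81%. The NF-kB letters, GGGNN followed directly by TTTCC, were in 0 member entries and 1.63% of all promoters. The median GC content was 63.7% for member entries and 52.7% for all promoters. These matches describe letters only.

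Adam10, Adam17 and Adam9 were lower by small amounts in placode-enriched libraries. Adam10 (chromosome 9, 70678997 to 70780229, plus strand, GRCm38), which cuts Notch receptors and cadherins, had 97.6, 115 and 139 CPM in placode-enriched libraries and 122, 134 and 146 CPM in IFE libraries. These ranges overlapped, and it was lower in 6 of 7 pairs (log2 fold change -0.22 ± 0.08 SE, edgeR adjusted p = 0.0478). Adam17 (chromosome 12, 21323509 to 21373632, minus strand), the enzyme that releases TNF and several EGF receptor ligands, had 41.8, 50.6 and 62.2 CPM in placode-enriched, against 53.7, 60.5 and 75.7 CPM in IFE libraries (-0.30 ± 0.10, edgeR adjusted p = 0.0345). Adam9, also a sheddase, averaged 20.7 ± 1.36 CPM in placode-enriched, against 24.7 ± 2.09 CPM in IFE libraries (-0.26 ± 0.09, edgeR adjusted p = 0.0451). The 3 differences are small, and each was of opposite sign in pair 3.

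Each of these calls lay near the threshold and was lost when most single pairs were left out, and also under at least 1 other scaling. The edgeR adjusted p of Adam10 without pair 1, 2, 4, 5, 6 or 7 was 0.0735, 0.149, 0.11, 0.0761, 0.127 and 0.134, without the pair block 0.0553, and with library size alone 0.165. For Adam17 it was 0.0894, 0.117, 0.076, 0.057 and 0.0898 without pair 1, 2, 4, 5 or 6, and 0.106 with library size alone. For Adam9 it was 0.093, 0.133, 0.119, 0.0861, 0.0843 and 0.0818 without pair 1, 2, 4, 5, 6 or 7, and 0.0553 with upper-quartile scaling.

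Adam15 and Adam12 were lower in every pair. Adam15 (chromosome 3, 89338542 to 89349996, minus strand), a sheddase that also binds integrins, had 8.89, 10.4 and 13.3 CPM in placode-enriched, against 15.5, 17.5 and 24.8 CPM in IFE libraries (-0.80 ± 0.11, edgeR adjusted p = 5.95e-05). Its ranges did not overlap. Adam12 (chromosome 7, 133883199 to 134232146, minus strand), known from mesenchymal and muscle precursor cells, had 0 counts in 6 placode-enriched libraries and 3 in that of pair 3. Against these 3 counts it had 574 in IFE libraries, 53 to 99 in each, a ratio of 0.00524 after scaling for library size (95% counting interval 0.00108 to 0.0154). Adam12 was thus close to undetected in placode-enriched libraries at this depth, and low in IFE at 1.59, 2.57 and 3 CPM. The low-count filter asks for enough counts in at least as many libraries as a fraction holds. With so few placode-enriched counts, Adam12 could be tested only if counted in every IFE library.

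Adam11 was the 1 higher member of its class and belongs to the Adam proteins without protease activity, known best from the nervous system. Its levels were 3.87, 4.86 and 7.93 CPM in placode-enriched, against 2.47, 3.01 and 3.6 CPM in IFE libraries (0.72 ± 0.19, edgeR adjusted p = 0.0102). The ranges did not overlap and it was higher in 7 of 7 pairs. Adam19, a sheddase that processes neuregulin, averaged 0.346 ± 0.241 CPM in placode-enriched, against 1.31 ± 0.704 CPM in IFE libraries and did not pass (-1.93 ± 0.70, edgeR adjusted p = 0.0504). It passed under 9 of 18 alternatives. Its adjusted p was 0.0489 without pair 3, 0.00336 without pair 5, 0.0318 in pairs 1 to 4 alone, 0.00909 without the pair block, 0.00433 with DESeq2 and 0.0303 with limma-voom. It was 0.048 with no filter, 0.0488 with non-robust dispersion and 0.0496 without mitochondrial and structural RNA genes, and up to 0.62 under the others. Adam8, Adam1a, Adam22 and Adam4 did not pass, with log2 fold changes of 0.48, 0.50, 0.34 and -0.10.

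The largest positive differences of the family lay among Adamts genes of the proteoglycanase group (Adamts1, 4, 5, 8, 9, 15 and 20), which cut versican and aggrecan. Of these 7, 2 were higher and 5 did not pass. Adamts15 (ENSMUSG00000033453) had 7.04, 10.9 and 14.6 CPM in placode-enriched libraries and 0, 0.0571 and 1.01 CPM in IFE libraries (log2 fold change 6.08 ± 0.55, edgeR adjusted p = 1.67e-06). Of its 46 IFE counts, 30 came from replicate 3, and without pair 3 its log2 fold change was 7.02. Adamts8 (ENSMUSG00000031994) had 0.709, 1.63 and 2.81 CPM in placode-enriched, against 0, 0.0254 and 0.0856 CPM in IFE libraries (5.53 ± 0.73, edgeR adjusted p = 4.96e-05). It had 18 to 144 counts in each placode-enriched library and 0 to 3 in each IFE library, and without pair 2 its log2 fold change was 6.13. Both genes were thus close to undetected in most IFE libraries and present in all placode-enriched ones. As for Adam12, genes this low in IFE libraries were tested only if counted in nearly every placode-enriched library. Their presence there was therefore set by the filter and is not a separate result.

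The other 5 proteoglycanases were present in both fractions. Adamts5 averaged 14.9 ± 4.19 CPM in placode-enriched, against 12.5 ± 2.26 CPM in IFE libraries (0.23 ± 0.15, edgeR adjusted p = 0.289). Adamts1 averaged 8.44 ± 1.23 CPM in placode-enriched, against 10.4 ± 1.06 CPM in IFE libraries (-0.30 ± 0.14, edgeR adjusted p = 0.12). Adamts4, Adamts9 and Adamts20 had log2 fold changes of 0.79, -0.21 and 0.25. Versican, the matrix proteoglycan that this group cuts, was lower in placode-enriched libraries: Vcan averaged 555 ± 71.7 CPM in placode-enriched, against 998 ± 126 CPM in IFE libraries (-0.85 ± 0.10, edgeR adjusted p = 1.54e-05).

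Adamts15 and Adamts8 are neighbours. Adamts15 lies on chromosome 9 at 30899155 to 30922452 on the minus strand and Adamts8 at 30942562 to 30963838 on the plus strand (GRCm38), so that they point away from each other with 20.1 kb between their bodies. The nearest tested genes on either side differed little: Snx19 had a log2 fold change of 0.03, Zbtb44 of 0.08, St14 of -0.03, Prdm10 of 0.00 and Nfrkb of -0.07, and none of them passed. Aplp2 was higher by 0.29 ± 0.07 (edgeR adjusted p = 0.0048). Among these 8 tested genes the pair therefore stood apart in size of difference. The other close Adamts pair, Adamts1 and Adamts5 on chromosome 16 with 53.1 kb between them, held no call, as given above. An exon of Adamts8 overlaps Gm29724 on the opposite strand, a gene that is not listed in the table.

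**Figure D3:**
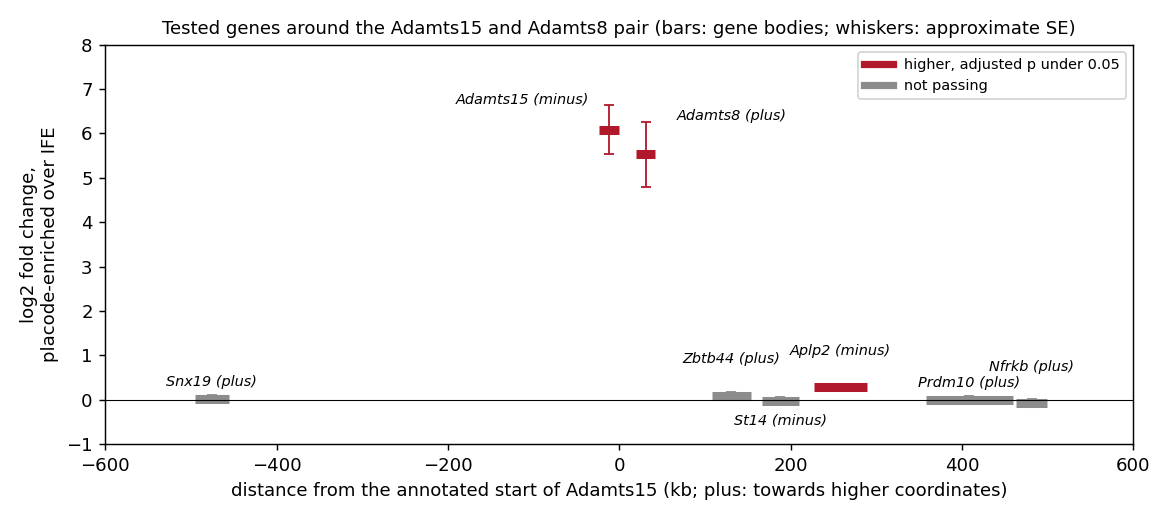
Log2 fold change (placode-enriched over IFE, y axis) of the tested genes around Adamts15 against distance from its annotated start in kb (x axis); bars span gene bodies and whiskers are the approximate SE. Adamts15 (6.08) and Adamts8 (5.53) lie far above the neighbours, which are between -0.07 and 0.29.

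Among the procollagen N-propeptidases, which trim fibrillar procollagens, Adamts3 was higher and its relatives Adamts2 and Adamts14 did not pass. Adamts3 (chromosome 5, 89677087 to 89883334, minus strand), which also activates the lymphatic growth factor VEGF-C, had 3.54, 5.74 and 7.5 CPM in placode-enriched, against 0.134, 0.432 and 0.917 CPM in IFE libraries. It was higher in 7 of 7 pairs without overlap (3.63 ± 0.32, edgeR adjusted p = 1.35e-06). Adamts14 averaged 31.5 ± 10.3 CPM in placode-enriched, against 26.9 ± 2.93 CPM in IFE libraries (0.18 ± 0.12, edgeR adjusted p = 0.3), and Adamts2 was low, at 0.378 CPM in placode-enriched, against 0.509 CPM in IFE libraries.

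Adamts17 was the most abundant Adamts gene and differed by nearly the same amount in each pair. It belongs with Adamts10, Adamts6 and others to the members linked to fibrillin microfibrils. Adamts17 (chromosome 7, 66839735 to 67153171, plus strand) had 165, 210 and 246 CPM in placode-enriched, against 73.5, 89.6 and 107 CPM in IFE libraries. Its log2 fold change was 1.20 ± 0.06 (edgeR adjusted p = 7.23e-09), with pair differences between 1.07 and 1.28. Adamts10 (chromosome 17, 33524204 to 33553782, plus strand) had 32.7, 36.6 and 52.8 CPM in placode-enriched, against 17.2, 18.9 and 21.7 CPM in IFE libraries (0.99 ± 0.09, edgeR adjusted p = 1.55e-06). Neither gene's ranges overlapped. Adamts19 had 15.6, 18.8 and 20.8 CPM in placode-enriched, against 12.8, 13.6 and 17.9 CPM in IFE libraries (0.38 ± 0.10, edgeR adjusted p = 0.0145).

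Adamts6 was higher by 0.48 ± 0.17 (edgeR adjusted p = 0.049), with 6.41, 8.28 and 13.8 CPM in placode-enriched, against 5.11, 6 and 7.85 CPM in IFE libraries. It lost its call without pair 1, 2, 3, 4 or 6, with adjusted p of 0.138, 0.0978, 0.103, 0.118 and 0.0836. Adamts18 averaged 21.5 ± 5.11 CPM in placode-enriched, against 20.5 ± 2.83 CPM in IFE libraries and did not pass (0.05 ± 0.15, edgeR adjusted p = 0.855). Fbn1 and Fbn2, the fibrillins of these microfibrils, were called in opposite directions. Fbn1 averaged 34.3 ± 4.8 CPM in placode-enriched, against 20.2 ± 4.04 CPM in IFE libraries (0.78 ± 0.08, edgeR adjusted p = 7.23e-06). Fbn2 averaged 10.8 ± 2 CPM in placode-enriched, against 25.5 ± 4.07 CPM in IFE libraries (-1.24 ± 0.12, edgeR adjusted p = 2.99e-06).

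Adamts12 and Adamts16 were the 2 lower Adamts genes. Adamts12 and Adamts7, related proteases that cut cartilage oligomeric matrix protein, were called in opposite directions. Adamts12 (chromosome 15, 11064790 to 11349231, plus strand) averaged 1.83 ± 0.508 CPM (median 1.71, highest 2.37) in placode-enriched, against 4.2 ± 0.625 CPM (lowest 3.43, median 3.97) in IFE libraries (-1.23 ± 0.21, edgeR adjusted p = 0.000521). Its ranges did not overlap. Adamts7 (chromosome 9, 90163069 to 90208071, plus strand) had 0.362, 0.917 and 2.76 CPM in placode-enriched, against 0, 0.342 and 0.657 CPM in IFE libraries (2.06 ± 0.62, edgeR adjusted p = 0.0213). Its ranges overlapped, and the call was lost without pair 5 (adjusted p = 0.0506) or 7 (0.0591). Adamts16 (chromosome 13, 70727802 to 70841811, minus strand), whose protease is little studied, had 0, 0.207 and 1.06 CPM in placode-enriched, against 0.542, 1.48 and 2.06 CPM in IFE libraries (-3.21 ± 0.90, edgeR adjusted p = 0.014). Its highest placode-enriched value was that of replicate 2, and without pair 2 its log2 fold change was -3.90.

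**Figure D4:**
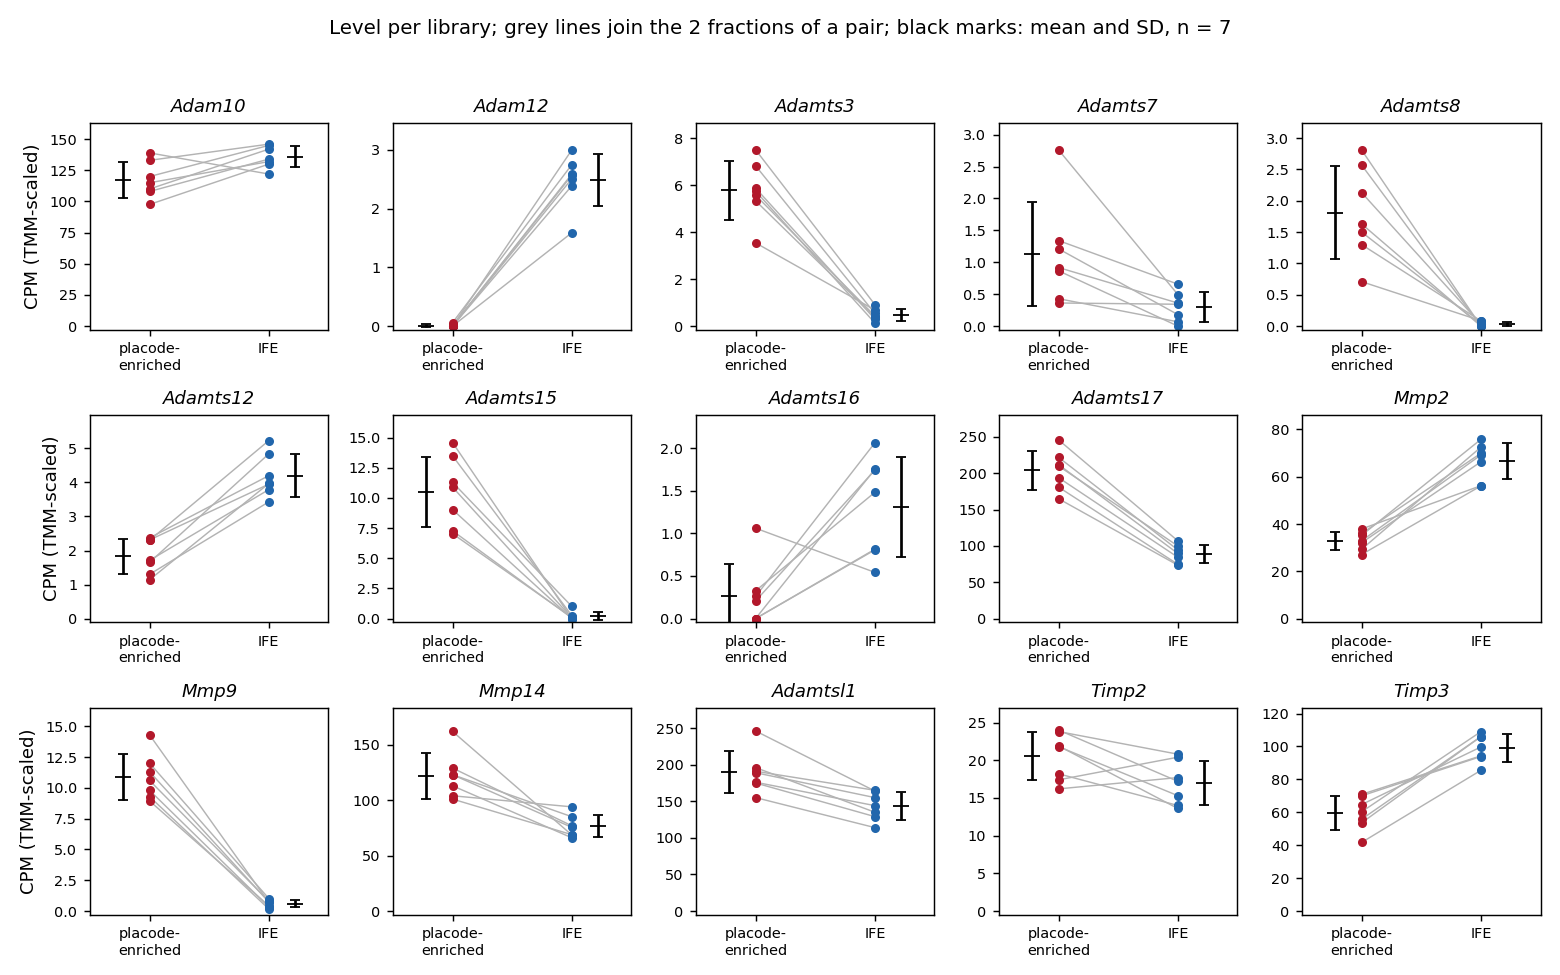
CPM (y axis, from 0) of 15 members in each library, with placode-enriched libraries in red at the left and IFE libraries in blue at the right, grey lines joining the fractions of a pair, and black marks for mean and SD (n = 7 each). Adamts17 sits between 165 and 246 CPM in placode-enriched libraries, above all IFE libraries, and Timp3 sits between 41.7 and 70.9 CPM, below all of them.

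Of the 5 Adamtsl genes, 2 were tested and both differed by less than 2-fold. Adamtsl1 (chromosome 4, 85514172 to 86428385, plus strand), also called punctin and known from extracellular matrix, had 155, 189 and 246 CPM in placode-enriched, against 114, 144 and 165 CPM in IFE libraries. The ranges overlapped, yet it was higher in 7 of 7 pairs (0.40 ± 0.07, edgeR adjusted p = 0.000526). Adamtsl5 had 5.71, 13 and 20.5 CPM in placode-enriched, against 16.6, 20.7 and 25.3 CPM in IFE libraries, lower in 6 of 7 pairs (-0.72 ± 0.19, edgeR adjusted p = 0.0108). Among those under the filter, Adamtsl2 had 2 counts in placode-enriched libraries and 29 in IFE libraries, and Adamtsl4 had 0 counts in placode-enriched libraries and 25 in IFE libraries.

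Among matrix metalloproteinases, the gelatinases Mmp9 and Mmp2 were called in opposite directions. Both cut denatured collagen and type IV collagen. Mmp9 (chromosome 2, 164940780 to 164955850, plus strand) had 8.94, 10.6 and 14.3 CPM in placode-enriched libraries and 0.171, 0.714 and 1.02 CPM in IFE libraries (4.23 ± 0.24, edgeR adjusted p = 2.25e-08). Mmp2 (chromosome 8, 92827291 to 92853420, plus strand) had 27.1, 32.9 and 37.9 CPM in placode-enriched, against 56.1, 69.2 and 75.8 CPM in IFE libraries (-1.02 ± 0.09, edgeR adjusted p = 1.15e-06). Neither gene's ranges overlapped, and each difference had 1 sign in 7 of 7 pairs. Per kb of exon, Mmp9 stayed the less abundant of them in placode-enriched libraries, at 3.08 ± 0.528 beside 9.77 ± 1.12 CPM per kb for Mmp2.

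Mmp9 is also made by myeloid cells, whose markers were examined beside it. Of the 10 immune markers listed, 4 were tested, and Cd74 and Aif1 were higher while Cd68 and Fcer1g did not pass. Their summed level was 36.1 to 56.2 CPM in placode-enriched, against 4.49 to 12.5 CPM in IFE libraries, most of it Cd74 at 39 ± 5.47 CPM in placode-enriched, against 3.84 ± 1.41 CPM in IFE libraries. Of the 6 under the filter, Tyrobp and C1qa had counts in 0 of 7 placode-enriched libraries, while C1qb had them in 4, Csf1r in 3, C1qc in 2 and Ptprc in 1. In IFE libraries Csf1r had counts in 6 of 7, Tyrobp and C1qb in 4, and C1qa, C1qc and Ptprc in 3. The part of immune cells in the Mmp9 difference was not tested.

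Mmp14, the membrane-type enzyme that activates proMmp2 and cuts fibrillar collagen, was the most abundant Mmp gene in placode-enriched libraries. Mmp14 (chromosome 14, 54431612 to 54445364, plus strand) had 101, 123 and 162 CPM in placode-enriched, against 66.1, 75.5 and 94 CPM in IFE libraries. It was higher in 7 of 7 pairs without overlap (0.67 ± 0.10, edgeR adjusted p = 0.000268). The other 3 tested membrane-type genes did not pass, with log2 fold changes of 0.02 for Mmp15, -0.28 for Mmp16 and -0.05 for Mmp17. Mmp11, a stromelysin cleaved inside the secretory pathway by furin, averaged 25.5 ± 5.86 CPM in placode-enriched, against 21.9 ± 2.88 CPM in IFE libraries (0.20 ± 0.10, edgeR adjusted p = 0.172). Mmp23 was low, at 0.248 CPM in placode-enriched, against 0.394 CPM in IFE libraries (log2 fold change -1.17 ± 1.13).

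Of the inhibitors, Timp3 was lower and Timp2 and Timp1 did not pass. Timp3 (chromosome 10, 86300372 to 86349506, plus strand), which binds to the matrix and blocks Adam17 and several Adamts proteases as well as Mmp enzymes, had 41.7, 60.3 and 70.9 CPM in placode-enriched, against 85.5, 99.7 and 109 CPM in IFE libraries. It was lower in 7 of 7 pairs without overlap (-0.75 ± 0.09, edgeR adjusted p = 3.06e-05). Timp2, which takes part in proMmp2 activation together with Mmp14, had 16.2, 21.8 and 24 CPM in placode-enriched, against 13.6, 17.2 and 20.8 CPM in IFE libraries, higher in 5 of 7 pairs (0.27 ± 0.12, edgeR adjusted p = 0.113). It passed without pair 4 (adjusted p = 0.0462) and in the 27-7 pairs alone (0.0387). Timp1 averaged 0.586 ± 0.532 CPM in placode-enriched, against 0.756 ± 0.401 CPM in IFE libraries (-0.68 ± 0.63, edgeR adjusted p = 0.462). Timp3 shares exonic sequence with Syn3 on the opposite strand, and so do 10 other tested members with other genes, among them Adam15, Adam17, Adamts7 and Mmp11.

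The low-count filter removed 22 members, 11 Adam, 1 Adamts, 3 Adamtsl, 6 Mmp and 1 Timp gene, and these were not tested. Their total counts over 14 libraries ran from 3 to 164, and the highest mean was 0.495 CPM for Mmp24 in placode-enriched libraries, against 0.186 CPM in IFE. A mean of at least 0.1 CPM in a fraction was also reached by Adam5, Adam32, Adamts13, Adamtsl2, Adamtsl3, Adamtsl4, Mmp19 and Mmp28. Mmp13, the collagenase of bone and wound edges, had 24 counts in placode-enriched libraries and 0 in IFE libraries. Mmp28, the enzyme epilysin known from keratinocytes, had 0 counts in placode-enriched libraries and 26 in IFE libraries. These 2 were picked after their values were seen, and counts this low describe these libraries alone.

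Partners and substrates of the family were examined in lists, which were chosen with earlier results of these data known. Of 4 tested tetraspanins of the TspanC8 group, which carry Adam10 to the cell surface, 2 were higher, 1 was lower and 1 did not pass, with a median log2 fold change of 0.95. This median leaves out the 2 genes of the group under the filter. Of these, Tspan10 had 2 counts in placode-enriched and 262 in IFE libraries, and Tspan33 had 25 in placode-enriched and 41 in IFE libraries. Tspan5 had 109, 117 and 152 CPM in placode-enriched, against 37.4, 44.5 and 55.5 CPM in IFE libraries (1.45 ± 0.09, edgeR adjusted p = 4.98e-08). Tspan15 had 5.14, 6.7 and 9.81 CPM in placode-enriched, against 0.769, 1.3 and 1.68 CPM in IFE libraries (2.48 ± 0.21, edgeR adjusted p = 1.1e-06). Both differences had the opposite sign to that of Adam10. Tspan14, the tested gene of this list called lower, had the same sign as Adam10. It averaged 45.2 ± 4.98 CPM in placode-enriched, against 52.6 ± 3.4 CPM in IFE libraries (-0.22 ± 0.08, edgeR adjusted p = 0.0492).

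Of 4 tested genes of the astacin list, 3 were higher and 1 did not pass, with a median log2 fold change of 1.06. Bmp1, which trims the C-propeptide of procollagens, had 44, 50.6 and 58.3 CPM in placode-enriched, against 16.9, 22 and 24.9 CPM in IFE libraries (1.27 ± 0.10, edgeR adjusted p = 3.57e-07). Its relative Tll1 had 11.4, 14.9 and 21.8 CPM in placode-enriched, against 0.361, 0.577 and 0.945 CPM in IFE libraries (4.71 ± 0.21, edgeR adjusted p = 2.37e-09). Astl was higher by 0.85.

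Regulators and other proteases split both ways. Among 11 tested inhibitors and regulators 3 were higher, 2 were lower and 6 did not pass, with a median log2 fold change of -0.13. The proteoglycan Spock1 was higher by 5.22 ± 0.65 and Furin, the convertase that activates Mmp14 and many Adam and Adamts proteins, by 0.49 ± 0.10, while the convertase Pcsk6 fell by 1.90 on the log2 scale. Of 8 tested plasminogen activation genes 3 were higher, among them Plat (2.50 ± 0.66), 2 were lower, Plau (-1.51 ± 0.13) and Serpinb2 (-3.18 ± 0.61), and 3 did not pass. Of 7 cathepsins 1 was higher, Ctsf (1.29 ± 0.33), 3 were lower, with Ctsc (-2.33 ± 0.10) and Ctsh (-1.30 ± 0.21) among them, and 3 did not pass.

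Substrates split as well. Of 7 tested Adamts substrates 3 were higher, 2 were lower and 2 did not pass, and fibronectin (Fn1) averaged 605 ± 118 CPM in placode-enriched, against 53.5 ± 8.12 CPM in IFE libraries (3.49 ± 0.07, edgeR adjusted p = 5.67e-12). Of 7 EGF family ligands, which Adam17 and Adam10 release, Tgfa was higher (1.73 ± 0.34), Btc (-2.14 ± 0.38), Ereg (-2.48 ± 0.80) and Hbegf (-1.02 ± 0.29) were lower, and 3 did not pass. Of 15 basement membrane genes 7 were higher, 2 were lower and 6 did not pass, with a median of 0.29.

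Levels of markers for other cell types differed between the fractions, and their part in the differences of the protease genes was not tested. Of 8 tested melanoblast markers 8 were lower, and their sum was 8.31 to 14.6 CPM in placode-enriched, against 124 to 222 CPM in IFE libraries. Schwann cell and neuron markers held 3 lower genes of 6 and summed to 82.1 to 112 CPM in placode-enriched, against 145 to 159 CPM in IFE libraries, most of it Erbb3 at 87.7 ± 9.74 CPM in placode-enriched, against 142 ± 4.75 CPM in IFE libraries. Suprabasal markers summed to 251 to 514 CPM in placode-enriched, against 3031 to 4684 CPM in IFE libraries. Any member called lower shares the direction of these 3 sums by its selection, so this was fixed in advance and tells nothing of a cause. The immune, endothelial and dermal fibroblast sums were higher in placode-enriched libraries in 7 of 7 pairs. Of 8 tested dermal fibroblast markers 3 were higher, 2 were lower and 3 did not pass, with sums of 1180 to 1963 CPM in placode-enriched, against 1094 to 1439 CPM in IFE libraries. Most of these sums came from Postn and Dcn. Postn averaged 1042 ± 192 CPM in placode-enriched, against 745 ± 82.6 CPM in IFE libraries. Dcn averaged 498 ± 79.2 CPM in placode-enriched, against 258 ± 24.2 CPM in IFE libraries. Those that did not pass were Col3a1 (-0.30), Pdgfra (0.06) and Lum (0.37). The higher ones were Col1a2 (1.25), Dcn (0.94) and Postn (0.47), and the lower ones Col1a1 (-2.49) and Vim (-1.17). Of the 3 under the filter, Pdgfrb had counts in 6 of 7 placode-enriched libraries and 5 of 7 IFE libraries, Twist2 in 1 placode-enriched and 5 IFE libraries, and Twist1 in 0 placode-enriched and 5 IFE libraries. The endothelial sum was low, at 1.33 to 3.86 CPM in placode-enriched, against 0.214 to 1.7 CPM in IFE libraries. Most of it in placode-enriched libraries was Pecam1 (mean 1.83 CPM), the 1 tested endothelial marker, which was higher by 2.15 ± 0.44. The other 6 were under the filter. In placode-enriched libraries Tek had counts in 7, Esam in 4, Cldn5 in 3, Kdr and Emcn in 2 and Cdh5 in 1. In IFE libraries Tek had counts in 5, Esam in 4, Cldn5 and Kdr in 1, and Emcn and Cdh5 in 0. Muscle and erythroid markers were all under the filter. Of 6 periderm markers 2 were higher and 4 were lower.

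The fraction effect was compared between the 3 pairs with 27-7 codes and the 4 others. With edgeR's interaction test 0 members and 0 genes passed, 3 members and 528 genes (3.43%) had an unadjusted p under 0.05, and limma-voom also gave 0 and 0, with 3 and 601 unadjusted. The 3 members by edgeR were Adamts5 (log2 fold change -0.18 in the 27-7 pairs and 0.54 in the others), Adamts6 (0.04 and 0.81) and Timp2 (0.56 and 0.05), each at an adjusted p of 0.902. Of the 22 called members 0 had opposite signs in the 2 sets of pairs. They were called over these same 7 pairs, which favours 1 sign in both sets, so this is no separate support.

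**Figure D5:**
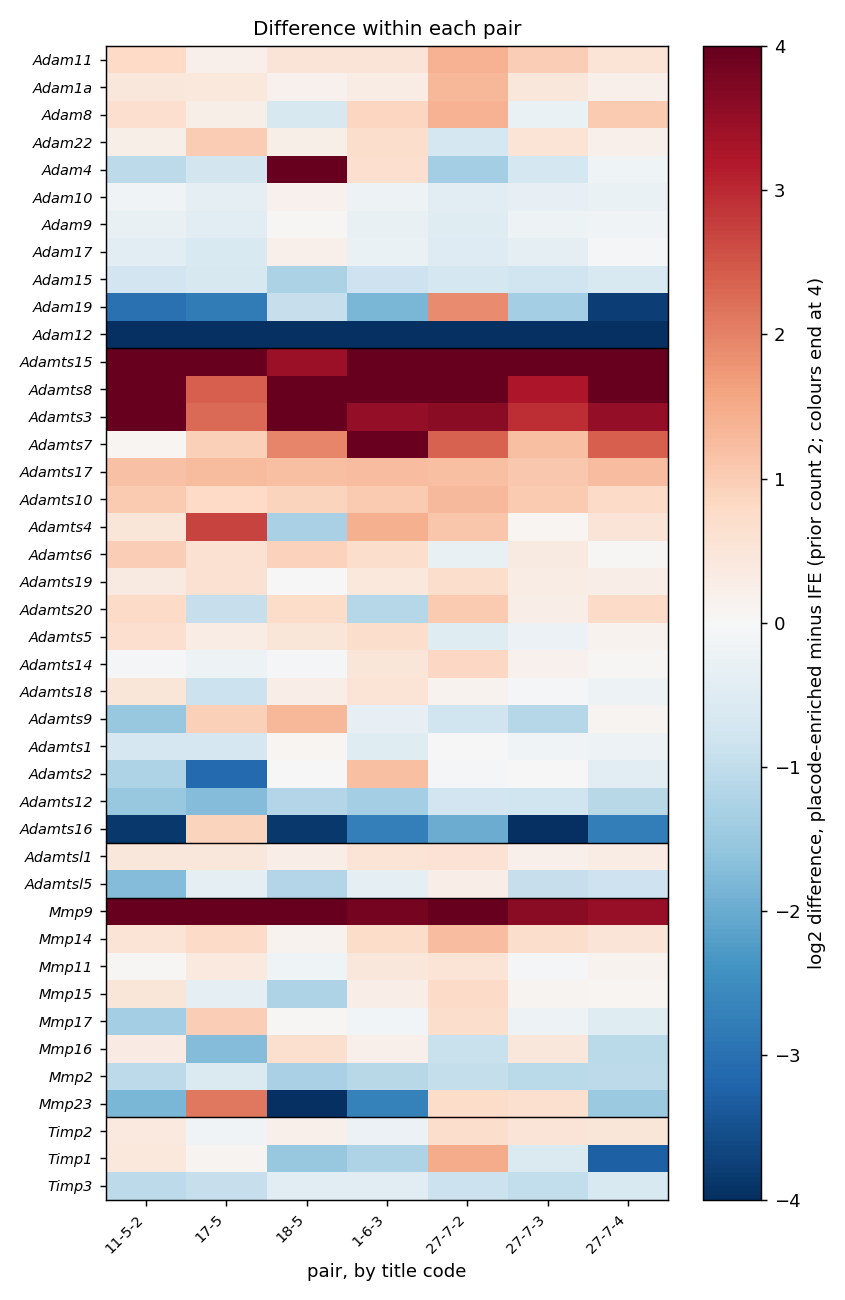
Log2 difference within each pair (placode-enriched minus IFE, prior count 2, colours end at 4), with pairs by title code on the x axis and the 42 tested members by class on the y axis. Rows such as Adamts15, Adamts8, Adamts3 and Mmp9 are red in all 7 pairs, Adam12, Adam15, Adamts12, Mmp2 and Timp3 are blue in all 7, and most members that did not pass hold both colours.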

How the data were processed

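Raw read counts per Ensembl gene, as the authors deposited them, were analysed for 14 libraries. The submitters' processing notes name HTSeq, STAR (given as 1.5), Trimmomatic, FastQC, MultiQC and bcl2fastq (2.17.1.14), with GRCm38/mm10. For the annotation release, strand setting and duplicate handling the sources used here give nothing. Exons of 16 members overlap a gene on the opposite strand and those of 1 a gene on the same strand, so they may share reads. Symbols and lengths came from GENCODE M21, which matched 25949 of 26252 identifiers, and the 303 others held 0.436% of counts.

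The edgeR filter filterByExpr kept 15382 genes and removed 10870. Robust quasi-likelihood F tests in edgeR 4.0.16 (limma 3.58.1, R 4.3.3) used TMM scaling and the pair as a block, with Benjamini-Hochberg adjustment at 0.05 over all genes tested. Fold changes (placode-enriched over IFE) used 0.125 as prior count, SEs are approximate, and pair differences used a prior count of 2. CPM used TMM-scaled library sizes, and the common biological coefficient of variation was 0.216. Tables were made with Python 3.11.15 and pandas 2.3.3, and methods were tested on simulated data.

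The pairing comes from the labels: a design of 7 pairs, shared title codes and pools from a litter. Deviations from the fraction means correlated between -0.132 and 0.195 within pairs (mean 0.0548, over 0.1 in 2 pairs). The labels do not say that pairs come from separate litters or days, so p-values measure the spread between pools.

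Members and lists were chosen with earlier results of these data known. Every tested member is named. Lowest, median and highest libraries are given for called members with an absolute log2 fold change of at least 1 and a mean of at least 1 CPM, and for the most abundant of each class; other list genes are named where they pass with at least that fold change, and otherwise up to 4 a list, with 1 such gene not reported here. A planned description of protein sequences was not run. Alternatives were other scalings and filters, no pair block, leaving out each pair, each of the 2 sets of pairs by itself, limma-voom, DESeq2 1.42.0, a dispersion fit that is not robust, dropping mitochondrial and structural RNA genes, and another gene length. Intervals of count ratios cover counting error only.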

Additional observations from a re-analysis of the deposited data

Results flagged for a closer look

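Of 84 groups of 7 libraries, 7 held a library far from the others by Dixon's criterion (the gap to the nearest library as a share of the range), where chance flags about 5% of groups. In placode-enriched libraries, Adam12 was at 0.0585 CPM in replicate 3 and at 0 in the others. Adamts10 was at 52.8 CPM in replicate 5, with the others between 32.7 and 39.9. Adamts16 was at 1.06 CPM in replicate 2, with the others between 0 and 0.325. Adamts7 was at 2.76 CPM in replicate 5, with the others between 0.362 and 1.34. In IFE libraries, Adamts15 was at 1.01 CPM in replicate 3, with the others between 0 and 0.241. Adamts20 was at 2.82 CPM in replicate 4, with the others between 1.08 and 1.78. Adamts4 was lowest in replicate 2 at 0.171 CPM, with the others between 0.457 and 0.541. Adamts10, Adamts15 and Adam12 kept their calls without these pairs, and Adamts7 lost its call without pair 5.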

How the results depend on the processing

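Of the 22 called members, 11 kept direction and call under every alternative that gave a value (up to 19 each): Adam12, Adam15, Adamts3, Adamts8, Adamts10, Adamts15, Adamts17, Mmp2, Mmp9, Mmp14 and Timp3. The other 11 lost the call under at least 1, and 0 changed sign. Of the 20 that did not pass, 3 passed under at least 1 alternative and 8 changed sign.

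The count of higher members was 12, and leaving out each replicate gave 11 to 12. The count of lower members was 10, and leaving out each replicate gave 7 to 11. Without the replicate block, counts were 12 and 10, Adam10 lost and Adam19 gained the call, and no other call changed. With only the 3 pairs coded 27-7, where fewer libraries enter, 8 were higher and 4 lower, and with the other 4 pairs 10 and 7. Adam9, Adam10, Adam11, Adam17, Adamts7, Adamts16 and Adamts19 lost the call in either set of pairs alone, and Adamts6, Adamts12, Adamtsl1 and Adamtsl5 in the 27-7 pairs. Adamts5 passed in the other 4 pairs.

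Sign changed only in members that did not pass, and the cause was not tested. Log2 fold changes were then 0.11, 0.03, 0.15, 0.03 and 0.56 for Adam4 (without pair 1, 2, 5 or 6, and in the other pairs), -0.02, -0.03 and -0.03 for Adamts18 (without pair 1 or 4, and in the 27-7 pairs), -0.14 for Adamts20 (other pairs), -0.18 for Adamts5 (27-7 pairs), 0.01 and 0.15 for Adamts9 (without pair 1, and in the other pairs), -0.05, -0.02, -0.11 and -0.22 for Mmp15 (without pair 1, 4 or 5, and in the other pairs), 0.01, 0.03, 0.16, 0.04 and 0.01 for Mmp17 (no block, limma-voom, without pair 1 or 7, and in the 27-7 pairs) and 0.02 for Mmp23 (27-7 pairs). With each pair left out in turn, the lowest value was -0.60 for Adam4 and -0.48 for Adamts9, and the highest was 0.20 for Adamts18 and 0.22 for Mmp15. With the longest transcript as length, the Mmp share was 29.3% in placode-enriched and 28.8% in IFE libraries, and with exon length 27.4% in placode-enriched and 28.6% in IFE libraries. Depth limits members under about 1 CPM.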
